A study of Homo sapiens with 6 samples.

Results

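The mRNAs of 36 aminoacyl-tRNA synthetases were examined after METTL16 was silenced with siRNA in PANC-1, a cell line established from a human pancreatic ductal adenocarcinoma. METTL16 is an RNA methyltransferase that places N6-methyladenosine on U6 snRNA and MAT2A mRNA. The genes were taken by name from the deposited expression table, 36 of its 58735 genes, and comprised 20 cytosolic enzymes and 16 mitochondrial ones, whose symbols end in 2. The choice was by name and not by a threshold on measured values.

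Libraries made with an mRNA-seq kit were sequenced from 3 control cultures (si-NC) and 3 METTL16-silenced cultures (si-METTL16), which the methods describe as biological triplicates. Both arms were the same line in DMEM with serum and antibiotics. By the titles and the methods both received an siRNA, and by the labels the arms differed in its target. The controls carry control siRNA in the titles and the methods, while a transfection label calls them WT. The methods call the siRNA-treated cells stably transfected, and for METTL16 silencing in PANC-1 they also describe shRNA with puromycin selection. Which of the study's METTL16 siRNAs was sequenced is not given in the sources used here, so the comparison rests on 1 line and 1 unnamed siRNA or mixture.

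Aminoacyl-tRNA synthetases join each amino acid to its tRNA, the step that supplies the ribosome with charged tRNA. Cytosolic translation and mitochondrial translation use separate enzymes for most amino acids, all encoded in the nucleus, while GARS and KARS each encode both forms of their enzyme. When charged tRNA runs short or the endoplasmic reticulum is stressed, phosphorylation of eIF2α favours translation of the transcription factor ATF4, which induces many cytosolic synthetase genes together with genes of amino acid synthesis and transport. ATF4 acts with C/EBP partners on a composite DNA element, the C/EBP-ATF response element. For this comparison 12 cytosolic enzymes were set apart as known ATF4 targets from general knowledge (AARS, CARS, EPRS, GARS, IARS, LARS, MARS, NARS, SARS, TARS, WARS and YARS), and the other 8 included FARSA, FARSB, HARS, KARS, QARS, RARS and VARS. This split was made with earlier results of these data known, so contrasts between its groups are descriptive.

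The counts summed to between 15725298 and 18054436 per sample, and the lowest count of any synthetase in any sample was 108, so all 36 passed the filter on low counts. METTL16 itself, on chromosome 17, was measured at 91.5, 96.7 and 101 CPM (counts scaled to the library's total) in the 3 control cultures and at 34.8, 33.9 and 34.9 CPM in the si-METTL16 replicates, which left 35.9% of the control level (log2 fold change -1.48, adjusted p = 8.34e-05). As markers of ductal epithelium, KRT8, KRT18, KRT19 and SOX9 had mean si-NC levels of 43.1 to 175 FPKM (fragments scaled to gene length and library total), and KRT7 had 0.949 FPKM. KRT19 (log2 fold change -1.40), KRT7 (-0.84) and SOX9 (-0.25) were called lower after silencing. Of 13 markers of leukocytes, endothelium, fibroblasts, acinar cells and islets, 12 stayed under 1 CPM in every sample, among them the fibroblast genes DCN and LUM, and CD3E, CPA1 and GCG were at 0. The exception was COL1A1, at 26.4 FPKM in si-NC cells and 62.5 FPKM in si-METTL16 cells. With it, the list summed to 324 to 375 CPM in si-NC samples and 801 to 840 CPM in si-METTL16 samples, and the part of COL1A1-expressing cells in the results below was not tested.

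Letters of the element that ATF4 binds were found in several promoters of the enzymes set apart as its targets, and these sites are shown because they are a feature of the genes that the expression values did not choose. Knowledge of ATF4 targets rests in part on such elements, so the sites are no independent evidence for that grouping. Promoters of RefSeq genes (GRCh38.p14), 300 bases from 250 before the start to 50 after it, were matched to 16 of the 20 cytosolic and 14 of the 16 mitochondrial genes. LARS, VARS, YARS, AARS2 and VARS2 were among those not analysed for sequence here. The letters TGATGCAA, searched on both strands (TTGCATCA on the other), were found in 6 of the 10 matched promoters of ATF4 targets, in 0 of 6 of the other cytosolic enzymes and in 0 of 14 of the mitochondrial ones. Of all 27305 RefSeq promoters, 0.923% held these letters. In the 30-base windows below, read along the gene, capitals mark the 8 matching bases:
AARS, chr16:70289675-70289704, minus strand: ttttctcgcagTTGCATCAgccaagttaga
CARS, chr11:3057407-3057436, minus strand: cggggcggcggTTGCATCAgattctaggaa
IARS, chr9:92293692-92293721, minus strand: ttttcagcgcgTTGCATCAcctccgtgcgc
MARS, chr12:57488053-57488082, plus strand: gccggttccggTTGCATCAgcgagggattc
NARS, chr18:57621804-57621833, minus strand: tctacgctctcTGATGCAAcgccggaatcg
TARS, chr5:33440956-33440985, plus strand: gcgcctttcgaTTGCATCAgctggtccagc

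With the start as base 0, the match began at -187 in AARS and at -13, -4 and -2 in IARS, MARS and CARS, and it lay just inside the transcribed part in TARS (from 2) and NARS (from 14). Allowing any base at the sixth position (TGATGNAA, which includes the matches above) added 1 synthetase, YARS2, and raised the share of all promoters to 3.67%. These are matches of letters in 1 window per gene, and no binding of ATF4 was measured.

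Before silencing, the cytosolic mRNAs were on the whole the more abundant. On the FPKM scale, which allows for gene length, the median si-NC level was 22.7 for the cytosolic enzymes and 3.68 for the mitochondrial ones, with ranges of 4.22 to 96.3 and 1.14 to 63.4. EPRS, which charges both glutamate and proline, stood highest at 96.3 ± 11.2 FPKM (SD, n = 3). GARS, the glycyl enzyme, followed at 92.3 ± 20.1 FPKM, and these neighbours did not differ beyond their spread. The tryptophanyl enzyme WARS was the least abundant cytosolic member at 4.22 ± 0.526 FPKM.

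Among the mitochondrial enzymes the isoleucyl enzyme IARS2 was far above the rest at 63.4 ± 3.73 FPKM, and RARS2 followed at 21.1 ± 1.65 FPKM. IARS2 was also the only mitochondrial enzyme more abundant than its cytosolic counterpart in si-NC cells, with 0.576 times as much IARS as IARS2. The cysteinyl enzyme CARS2 was lowest at 1.14 ± 0.0879 FPKM, and FARS2 and WARS2, at 1.41 ± 0.245 and 1.47 ± 0.242 FPKM, did not differ from each other beyond their spread.

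**Figure D1:**
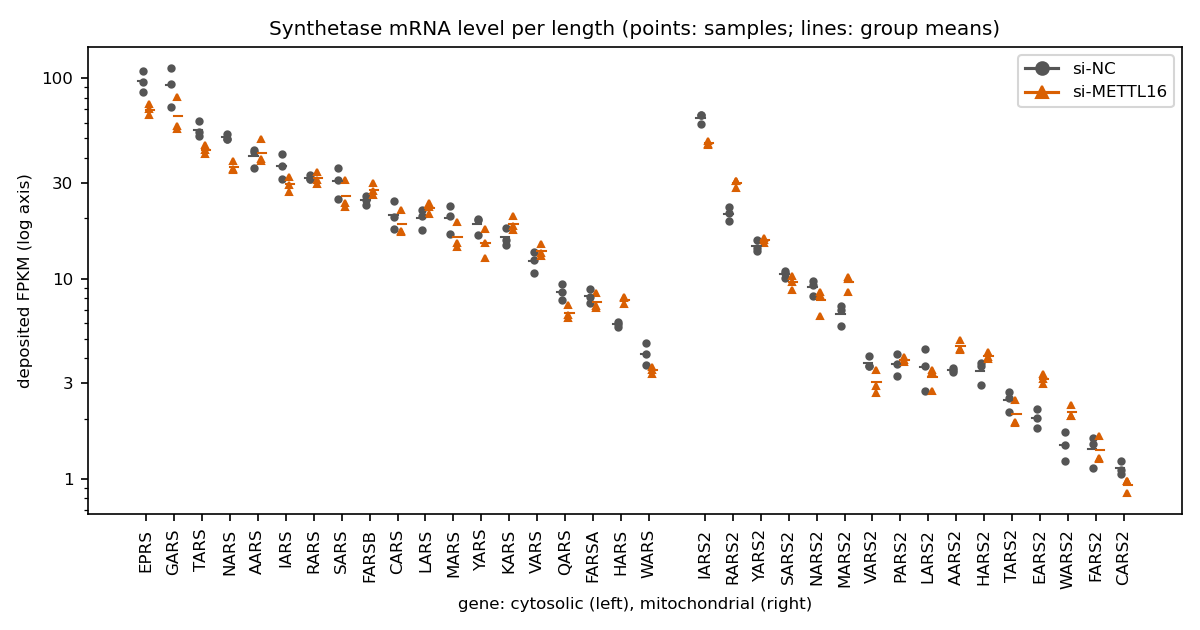
Deposited FPKM of each synthetase shown on a log axis, with si-NC samples as circles, si-METTL16 samples as triangles and group means as lines, sorted by the si-NC mean within the cytosolic and the mitochondrial enzymes. Cytosolic means in si-NC cells span 4.22 to 96.3 FPKM and mitochondrial means 1.14 to 63.4 FPKM, IARS2 being the mitochondrial gene at 63.4.

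After silencing, 11 of the 36 synthetase mRNAs changed, a share of 30.6% against 35.9% of all 15089 genes tested, so the family as a whole was called no more often than the background. By compartment, 4 cytosolic enzymes fell and 1 rose, while 5 mitochondrial enzymes rose and 1 fell. These counts moved with single samples: 7 cytosolic enzymes were called lower and 2 higher without si-NC replicate 2, and 2 cytosolic and 2 mitochondrial enzymes were called lower without si-METTL16 replicate 3. Of all genes tested, 18.4% were called higher and 17.5% lower. The share called lower was 20% of the cytosolic enzymes and 6.25% of the mitochondrial ones, and the share called higher 5% and 31.2%. The median log2 fold change was -0.17 over the cytosolic enzymes, 0.05 over the mitochondrial enzymes and 0 over all genes tested. The mitochondrial median turned to -0.05 without si-NC replicate 3 and to -0.01 without si-METTL16 replicate 2. All values were modest, with log2 fold changes between -0.50 and 0.67. The difference between the compartments was described and not tested. In bulk RNA, fewer cells with a transcript and less of it per cell cannot be told apart.

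**Figure D2:**
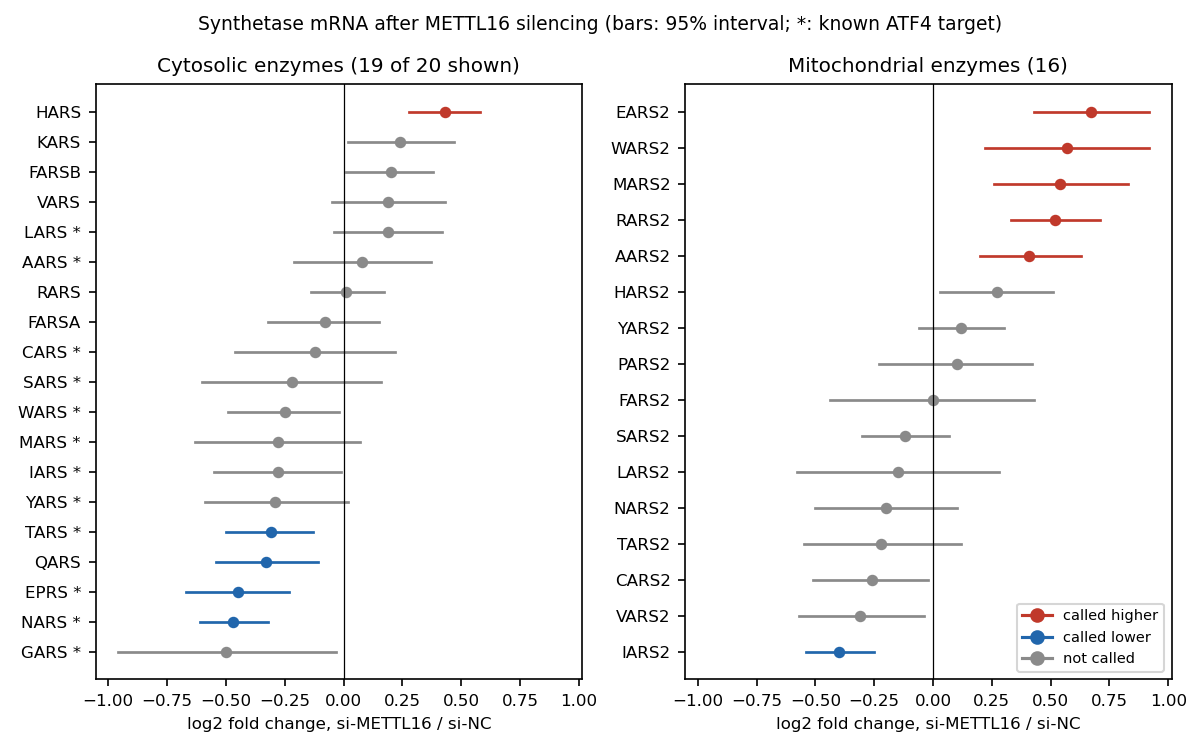
Log2 fold change of each synthetase shown in si-METTL16 against si-NC cells, with unadjusted 95% intervals from edgeR's quasi-likelihood fit (3 samples a group). Red genes were called higher and blue genes lower at an adjusted p under 0.05, and grey genes were not called. An asterisk marks the 12 known ATF4 targets. The mitochondrial panel has 5 red genes and 1 blue, the cytosolic panel 1 red and 4 blue.

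The asparaginyl enzyme NARS showed the clearest fall among the cytosolic enzymes. NARS (chromosome 18 from 57600656 to 57622213, GRCh38, as in the deposited table) had 382, 382 and 403 CPM in the si-NC cultures 1, 2 and 3 and 273, 301 and 272 CPM in the si-METTL16 replicates. Every silenced sample lay below every control, with 72.4% of the control level left (log2 fold change -0.47 ± 0.061 SE, adjusted p = 0.00132, edgeR's quasi-likelihood test). The call held whichever of the 6 samples was left out, with log2 fold changes of -0.52 to -0.44.

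EPRS (chromosome 1 from 219968601 to 220046658), the bifunctional glutamyl-prolyl enzyme and a member of the multi-synthetase complex, fell to 73.4% of control. The 3 controls gave 716, 568 and 634 CPM and the 3 silenced cultures 500, 470 and 437 CPM, and the groups did not overlap (log2 fold change -0.45 ± 0.094 SE, adjusted p = 0.00967, edgeR). Of all genes tested, 25.2% were lower without overlap of the groups.

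TARS, the threonyl enzyme on chromosome 5, had 647, 550 and 569 CPM in the si-NC replicates and 504, 470 and 448 CPM in the si-METTL16 replicates. The groups were again apart, but by less, with 80.5% of control left (log2 fold change -0.31 ± 0.078 SE, adjusted p = 0.0187, edgeR). The call was lost without si-METTL16 replicate 2 or replicate 3, with a largest adjusted p of 0.0602 among all alternatives. QARS, the glutaminyl enzyme on chromosome 3, had 130, 119 and 143 CPM in si-NC cells and 102, 113 and 97.4 CPM in si-METTL16 cells. Its silenced samples lay below the controls by a margin of a few CPM (log2 fold change -0.33 ± 0.091 SE, adjusted p = 0.0277, edgeR), and leaving out si-NC replicate 1, si-NC replicate 3, si-METTL16 replicate 1 or si-METTL16 replicate 3 ended the call.

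The histidyl enzyme HARS (chromosome 5 from 140673904 to 140691862) was the one of the 20 cytosolic enzymes that rose. It had 75.9, 77.8 and 73.6 CPM in the si-NC replicates and 97, 104 and 105 CPM in the si-METTL16 replicates, a level 1.34 times that of control (log2 fold change 0.43 ± 0.063 SE, adjusted p = 0.00228, edgeR). The groups were well apart and the call held in all 6 fits that left out a sample. HARS shares 7.7% of its exon bases with WDR55 on the opposite strand (GENCODE v44), and whether counting used strand is not given in the sources used here. WDR55 was counted about as often as HARS and did not pass the test (edgeR log2 fold change 0.07, adjusted p = 0.477). The mitochondrial gene HARS2 lies on the other strand and shares 108 exon bases with HARS, with 47.9, 61.1 and 58.9 CPM in si-NC and 65.5, 70.8 and 66.3 CPM in si-METTL16 cells. Its groups were apart, but it did not pass the threshold (log2 fold change 0.27, adjusted p = 0.0806, edgeR).

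The remaining 15 cytosolic enzymes were not called. Among them GARS, singled out after its values were seen, had the lowest log2 fold change of all 36, at -0.50 (95% interval -0.96 to -0.03, adjusted p = 0.0886, edgeR). Its 3 si-NC replicates already ran from 462 to 720 CPM, with 602 CPM in replicate 3, and its si-METTL16 replicates 1, 2 and 3 had 529, 375 and 362 CPM. The groups therefore overlapped through si-NC replicate 2 and si-METTL16 replicate 1. GARS was called lower in 4 of 15 alternatives, among them the fits without either of these samples and DESeq2. WARS, the least abundant, had 92.1, 71.7 and 81.2 CPM in si-NC cells and 69.1, 71.4 and 65.1 CPM in si-METTL16 cells, groups that touch without overlapping (log2 fold change -0.25, adjusted p = 0.0902, edgeR).

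The ATF4 target enzymes and the other cytosolic enzymes showed different medians. Of the 12 ATF4 targets, 3 fell (NARS, EPRS and TARS), 0 rose, and 10 had a negative log2 fold change, with a median of -0.28. The 25% called lower stood beside 17.5% of all genes tested, and the 25% called in either direction beside 35.9%. AARS (0.08, 95% interval -0.21 to 0.37) and LARS (0.19, -0.04 to 0.42) were the ones with positive values. Of the other 8, HARS rose, QARS fell, and the median was 0.14. Of the 6 genes with the element in the promoter, NARS and TARS fell. IARS and MARS, each at a log2 fold change of -0.28, CARS (-0.12) and AARS did not pass the test. EPRS fell with no match in its window.

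Spread among replicates within a condition also followed this grouping. Among the si-NC samples, all 12 ATF4 target enzymes were lowest in replicate 2, where 33.6% of all genes tested were lowest, and 11 of the 12 were highest in replicate 1, where 35.4% of all genes were highest. The mitochondrial enzymes leaned the other way, with 12 of 16 lowest in si-NC replicate 1 and 12 of 16 highest in replicate 2. Of the other 8 cytosolic enzymes, 5 were lowest in si-NC replicate 1 and 6 were highest in replicate 2. Among the silenced samples, 10 of the 12 ATF4 targets were highest in si-METTL16 replicate 1 and 11 were lowest in replicate 3. Of all genes tested, 32.6% were highest in si-METTL16 replicate 1 and 32.8% lowest in si-METTL16 replicate 3. The genes were measured in the same libraries, so these counts are 1 comparison of 3 samples in each group and not 12 independent ones.

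The medians of the groups in each sample show the size of that spread. On the log2(CPM + 0.5) scale relative to the si-NC mean, the ATF4 targets had medians of 0.17, -0.19 and 0.04 in the si-NC cultures 1, 2 and 3 and of -0.10, -0.30 and -0.39 in the si-METTL16 replicates. Thus the median of si-NC replicate 2 lay below that of si-METTL16 replicate 1. NARS, EPRS, TARS and WARS went the other way, with si-NC replicate 2 above si-METTL16 replicate 1. The other 8 cytosolic enzymes had medians of -0.07, 0.05 and 0 in the controls and 0.07, 0.12 and 0.13 in silenced cells. The median coefficient of variation among si-NC replicates was 12.2% for the ATF4 targets, 6.49% for the other cytosolic enzymes, 9.79% for the mitochondrial ones and 9.99% for all genes tested. The enzymes added without si-NC replicate 2 were GARS, IARS and WARS, called lower, and KARS, called higher.

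**Figure D3:**
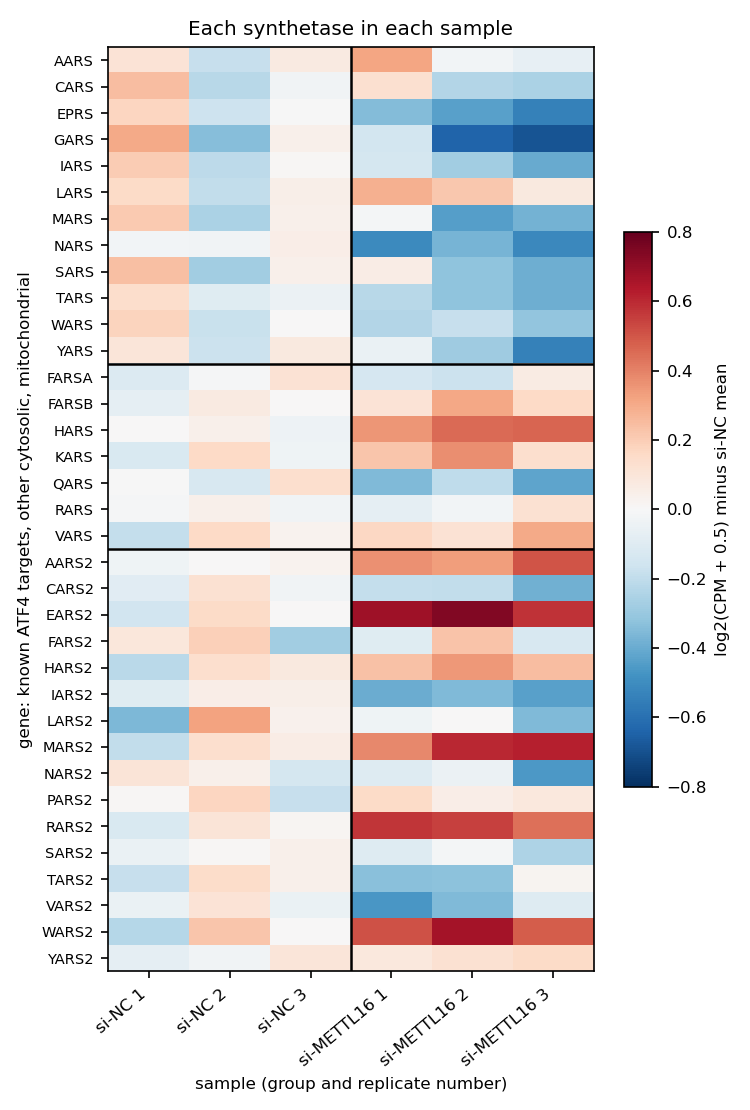
Each row is a synthetase shown and each column a sample, and the colour gives log2(CPM + 0.5) minus the mean of the 3 si-NC samples, red for higher and blue for lower. Black lines separate the 12 known ATF4 targets, the other cytosolic enzymes shown and the 16 mitochondrial enzymes, and the 2 groups of samples. In the top block si-NC replicate 2 is lowest of the controls for all 12 genes.

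The same si-NC replicates, and si-METTL16 replicate 1, stood out for the wider ATF4 programme. A list of 15 genes of this axis, ATF4 and other stress factors, enzymes of asparagine and serine synthesis and amino acid transporters, was written from general knowledge. Of these, 13 were lowest in si-NC replicate 2, 12 were highest in si-NC replicate 1 and 12 were highest in si-METTL16 replicate 1. The lowest silenced sample was less uniform, si-METTL16 replicate 3 for 9 genes and si-METTL16 replicate 2 for 5. Their median deviations were 0.21, -0.30 and 0.01 in the si-NC cultures 1, 2 and 3 and 0.01, -0.56 and -0.42 in the si-METTL16 replicates.

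Between the groups, 3 of the 15 fell, 1 rose and 11 did not pass the test, with a median log2 fold change of -0.29. The axis was thus called no more often than the background, at 26.7% against 35.9% of all genes tested, with 20% against 17.5% for genes called lower. CHAC1, a glutathione-degrading enzyme, had 88.8, 72.5 and 80.4 CPM in si-NC cells and 21.4, 8.72 and 21.9 CPM in si-METTL16 cells (log2 fold change -2.21, adjusted p = 0.00199, edgeR). SLC7A11, the cystine transporter, fell by 1.47 on the log2 scale (adjusted p = 0.0169), and PPP1R15A, a regulatory subunit of the eIF2α phosphatase, rose by 0.93 (adjusted p = 0.00982). The mRNA of ATF4 itself, whose activity is set mainly at translation, had 600, 465 and 515 CPM in the controls and 571, 558 and 557 CPM in silenced cells, and it was not called (log2 fold change 0.09, 95% interval -0.12 to 0.31). CHAC1, the axis gene with the largest absolute change, thus fell well beyond the spread of its replicates. The synthetases of the same programme moved by at most 0.50 on the log2 scale, with a median of -0.28 beside -0.29 for the axis.

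**Figure D4:**
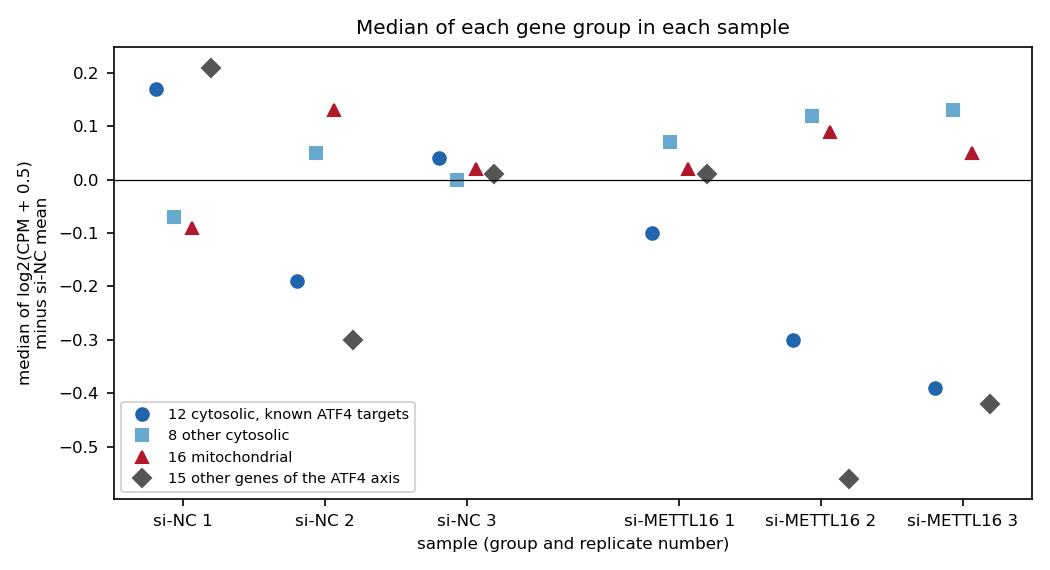
Median over the genes of each group of log2(CPM + 0.5) minus the si-NC mean, in each sample. The 12 ATF4 target synthetases (circles) and the 15 genes of the ATF4 axis (diamonds) are high in si-NC replicate 1, at 0.17 and 0.21, and low in si-NC replicate 2, at -0.19 and -0.30, while the mitochondrial enzymes (triangles) lie at -0.09 and 0.13.

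Of the mitochondrial enzymes, the glutamyl enzyme EARS2 had the highest fold change of the family. EARS2 (chromosome 16 from 23522014 to 23557731) had 24.2, 30.2 and 27 CPM in the si-NC cultures 1, 2 and 3 and 43.6, 45.5 and 40.7 CPM in the si-METTL16 replicates, 1.59 times the control level (log2 fold change 0.67 ± 0.10 SE, adjusted p = 0.00273, edgeR). All 3 silenced samples were well above all controls. EARS2 shares 2.9% of its exon bases with GGA2 on the same strand (GENCODE v44), a gene counted more often than EARS2. RARS2, the arginyl enzyme on chromosome 6, had 54.3, 63.5 and 59.6 CPM in si-NC cells and 87.8, 86.5 and 80.2 CPM in si-METTL16 cells (log2 fold change 0.52 ± 0.081 SE, adjusted p = 0.00288, edgeR). It was apart between the groups by a margin wider than either group's range.

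MARS2, the methionyl enzyme, had 17.3, 22 and 20.8 CPM in si-NC cells and 26.1, 30.5 and 30.9 CPM in si-METTL16 cells (log2 fold change 0.54, adjusted p = 0.0127, edgeR). AARS2, the alanyl enzyme, was tight among controls, at 15.6, 16 and 16.3 CPM, and rose to 20.7, 20.3 and 22.8 CPM (log2 fold change 0.41, adjusted p = 0.0124, edgeR). WARS2, the tryptophanyl enzyme, was the lowest of the genes that rose, at 7.87, 11 and 9.35 CPM in si-NC cells and 13.5, 15.1 and 13.2 CPM in si-METTL16 cells (log2 fold change 0.57, adjusted p = 0.0223, edgeR). The groups did not overlap for any of these genes, a pattern seen upward in 25.7% of all genes tested. EARS2, RARS2, MARS2 and AARS2 kept their call in all 6 fits that left out a sample. WARS2 kept it in 2 of the 6 and lost it without si-NC replicate 1, si-NC replicate 3, si-METTL16 replicate 1 or si-METTL16 replicate 2, with log2 fold changes of 0.45 to 0.69. WARS2 also shares 4.39% of its exon bases with WARS2-AS1 on the opposite strand (GENCODE v44). Over the 6 samples WARS2-AS1 had 1015 counts and WARS2 had 1177, and the effect of this overlap was not tested.

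IARS2 (chromosome 1 from 220094102 to 220148041), the most abundant mitochondrial synthetase mRNA, was the one that fell. It had 273, 304 and 302 CPM in the si-NC cultures 1, 2 and 3 and 222, 229 and 216 CPM in the si-METTL16 replicates, which left 75.9% of control (log2 fold change -0.40 ± 0.061 SE, adjusted p = 0.00266, edgeR). The groups were apart and the call held whichever sample was left out.

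The other 10 mitochondrial enzymes did not pass the test, with log2 fold changes from -0.31 (VARS2, adjusted p = 0.0742) to 0.27 (HARS2). CARS2, the least abundant, had 24.4, 28.3 and 25.4 CPM in si-NC cells and 22.7, 22.6 and 19.7 CPM in si-METTL16 cells (log2 fold change -0.26, adjusted p = 0.0863, edgeR). Its groups were apart, and the difference was smaller than those called. For FARS2, the phenylalanyl enzyme, the log2 fold change was 0.00 with a 95% interval of -0.44 to 0.43, so changes of that size could not be told from none at this depth and spread.

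Summed FPKM gives the balance of the cytosolic and the mitochondrial gene list in each sample. GARS and KARS, which encode both forms of their enzyme, were counted as cytosolic only. The 20 cytosolic enzymes summed to 675, 565 and 628 FPKM in the si-NC cultures 1, 2 and 3 and to 572, 523 and 502 FPKM in the si-METTL16 replicates. The sum was thus lower in silenced cells apart from an overlap between si-NC replicate 2 and si-METTL16 replicate 1. The 16 mitochondrial enzymes summed to 142, 159 and 154 FPKM in the controls and to 147, 153 and 145 FPKM in silenced cells, fully overlapping ranges in which IARS2 alone held much of the total. The ratio of the sums was 4.75, 3.54 and 4.07 in si-NC cells and 3.88, 3.42 and 3.47 in si-METTL16 cells.

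For 14 amino acids a cytosolic enzyme was paired with a mitochondrial one, FARSA standing for the cytosolic phenylalanyl enzyme. Glutamate and proline, both charged by EPRS in the cytosol, were left out of these pairs. For glutamate both enzymes passed the test, EPRS lower (log2 fold change -0.45) and EARS2 higher (0.67). For proline the mitochondrial enzyme PARS2 (0.10) was not called. In the fit to all 6 samples both enzymes passed the test in none of the 14 pairs. Without si-NC replicate 2 both passed for isoleucine (IARS and IARS2 lower, edgeR adjusted p = 0.0328 and 0.0107) and for tryptophan (WARS lower and WARS2 higher, adjusted p = 0.0345 and 0.0177). For methionine the mitochondrial enzyme rose, whereas MARS had 349, 253 and 311 CPM in si-NC cells and 298, 222 and 232 CPM in si-METTL16 cells (log2 fold change -0.28, 95% interval -0.63 to 0.07). The ratio of mean MARS to MARS2 FPKM went from 2.99 to 1.69, and no silenced sample reached the ratio of any control. The same was seen for tryptophan, with a ratio of WARS to WARS2 of 2.87 in si-NC and 1.62 in si-METTL16 cells, and for arginine, with 1.51 and 1.06. For valine the ratio of VARS to VARS2 moved the other way without overlap, from 3.20 to 4.51. In the remaining 10 pairs the ratios of the 2 groups overlapped. Among the levels of all genes tested, 50.9% did not overlap between the groups in either direction. No such share was computed for ratios, so separation of a ratio is no sign of a change particular to these pairs. With 3 samples against 3, an exact permutation test of a single ratio cannot go below p = 0.1, and none was run.

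**Figure D5:**
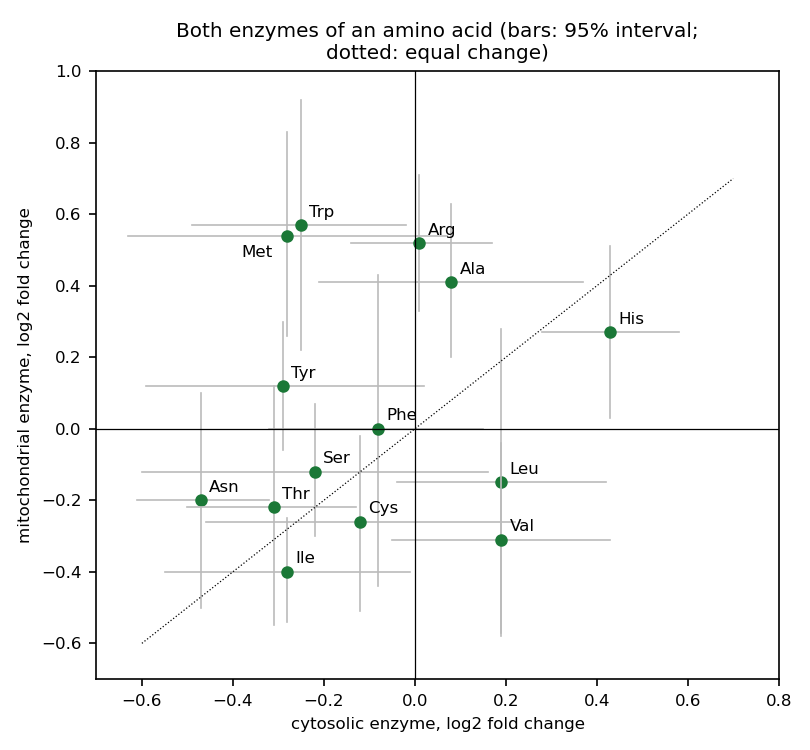
Log2 fold change of the mitochondrial enzyme (y axis) against that of the cytosolic enzyme (x axis) for 14 amino acids, with unadjusted 95% intervals as grey bars and a dotted line at equal change. Of the pairs shown, Trp (-0.25 and 0.57) and Met (-0.28 and 0.54) lie farthest above the line, and Val (0.19 and -0.31) lies farthest below it. Glutamate (EPRS -0.45 and EARS2 0.67), which differs more, and proline (EPRS and PARS2 0.10) are not shown.

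Some cytosolic synthetases work in a multi-synthetase complex held together by the scaffold proteins AIMP1, AIMP2 and EEF1E1. Of its 8 enzymes, EPRS and QARS fell, none rose, and the median log2 fold change was -0.14, beside 17.5% of all genes called lower. Of the scaffold genes, EEF1E1 rose from 51, 48.3 and 47.4 CPM to 65.9, 63.9 and 59.9 CPM (log2 fold change 0.37, adjusted p = 0.00731, edgeR), while AIMP1 (0.28) and AIMP2 (0.08) did not pass the test. The other enzymes of the complex, among them KARS, LARS, MARS, IARS and RARS, were not called, and RARS had a 95% interval of -0.14 to 0.17.

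The other genes around tRNA charging, 14 in a list written from general knowledge that includes these scaffolds, had 2 members called higher, 3 lower and 9 not called, with a median log2 fold change of -0.09. The share called, 35.7%, was that of the background, 35.9%. MTFMT, which formylates the initiator methionyl-tRNA of mitochondria, had 16.7, 11.6 and 14.2 CPM in si-NC cells and 10.1, 9.68 and 9.57 CPM in si-METTL16 cells (log2 fold change -0.54, adjusted p = 0.0301, edgeR). Its direction was thus opposite to that of MARS2, which charges the same tRNA. DTD2, an enzyme that removes wrongly joined amino acids from tRNA, fell by 0.49 on the log2 scale (adjusted p = 0.0296), and TARSL2, a second cytosolic threonyl enzyme, rose by 0.44 (adjusted p = 0.0162) where TARS fell. QRSL1, GATB and GATC, the subunits of the mitochondrial enzyme that completes glutaminyl-tRNA from the glutamyl-tRNA made by EARS2, had log2 fold changes of 0.02, -0.19 and -0.01 and were not called.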

How the data were processed

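RNA-seq of 6 PANC-1 samples, 3 si-NC and 3 si-METTL16, was used, and titles gave the groups and replicate numbers. Raw counts and FPKM values for each gene were deposited by the authors and are named so in the file headers. The submitters' processing notes name HISAT2 2.0.4, StringTie 1.3.0 and GRCh38. The counting program, annotation release and use of strand are not given in the sources used here. The study names limma for its comparison, which was run as an alternative, since a count test fits raw counts.

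Counts were filtered with filterByExpr (minimum count 10, minimum total 15), scaled by TMM and compared over 15089 genes with edgeR 4.0.16 (glmQLFit, glmQLFTest) in R 4.3.3, with Benjamini-Hochberg adjustment over all genes and a threshold of 0.05. CPM values were TMM-scaled. The standard error of a fold change was its absolute value divided by the square root of F. A count of 3 corresponded to 0.167 to 0.192 CPM. Positive fold changes are higher in si-METTL16. P-values measure the spread between these 3 cultures a group. No pair of samples was a duplicate library (chi-square per degree of freedom at least 15.9). The test was checked on simulated data, where it missed most of the genes given the smallest planted change. Far fewer genes were changed there than were called in the data, which makes the adjusted threshold stricter. Those misses therefore do not measure how often a changed synthetase would be missed here. A synthetase not called may still have changed.

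The members and gene lists were chosen with earlier results of these data known. Counts and medians cover all 36 members, of which 1 is not reported by name here; sample values are given for METTL16, up to 6 cytosolic and 5 mitochondrial members with the greatest absolute fold change among those called, the most and least abundant of each group, and members that lose the call when a sample is left out. In the other lists these were ATF4 and the 3 genes with the greatest absolute fold change among those called, and the rest were added as context. Gene positions were taken from the deposited file, and 7 of the 36 are identical in GENCODE v44. Pseudogenes, recognised by names formed from those of the members, held at most 0.0499% of the counts of gene and pseudogene. Alternatives were a replicate block, leaving out single samples, other filters, size factors, DESeq2 1.42.0, limma 3.58.1 on voom and on log2 FPKM values, and a threshold of 0.01.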

Additional observations from a re-analysis of the deposited data

How the results depend on the processing

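No synthetase that was called changed direction under any of the 15 alternatives. NARS, EPRS, HARS, EARS2, RARS2 and IARS2 were called in all 15. Without a filter on low counts, with at least 10 counts in every sample, with DESeq2 size factors, with limma on voom values and with limma on log2(FPKM + 1) or log2(FPKM + 0.1), the same 11 synthetases were called. The Wald test of DESeq2 added GARS. At an adjusted p under 0.01, 2 cytosolic enzymes were lower and 2 mitochondrial enzymes higher, since QARS, TARS, AARS2, MARS2 and WARS2 have larger adjusted p-values, and 3035 of all genes were called in place of 5418.

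Over the fits that each left out 1 sample, the cytosolic enzymes called lower numbered 2 to 7 and those called higher 1 to 2, and the mitochondrial enzymes called lower numbered 1 to 2 and those called higher 4 to 5. The extremes came without si-METTL16 replicate 3 (2 cytosolic enzymes lower, and VARS2 added to the mitochondrial enzymes lower) and without si-NC replicate 2 (7 lower and 2 higher). The median log2 fold change of the mitochondrial enzymes ranged from -0.05, without si-NC replicate 3, to 0.10. That of the cytosolic enzymes ranged from -0.29 to -0.11. METTL16 kept its call throughout.

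The replicate numbers did not pair the samples by the rule used, since same-numbered samples deviated together with correlations of 0.0373, 0.0538 and 0.0254 across genes, although every sample correlated best with its own number, a hint from the data and not from the design. With the replicate block, 5013 genes were called, and 2 cytosolic enzymes were higher (HARS and KARS) and 5 lower, with GARS (adjusted p = 0.0159) and MARS (adjusted p = 0.0301) added and QARS lost (adjusted p = 0.0679). Both methionyl enzymes then passed, MARS lower and MARS2 higher (adjusted p = 0.0112). METTL16 stayed at -1.48 in the block fit.

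With 3 samples a group, unadjusted 95% intervals of single synthetases reached from about 0.14 to 0.46 on either side of the estimate, so smaller changes were not detectable for the more variable genes.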
